A study of Rattus norvegicus with 6 samples.

Results

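The genes described here carry out acid and base transport in intercalated cells of the distal nephron and collecting duct. The list of 9 genes was Atp6v1b1, Atp6v0a4, Atp6v1g3, Slc4a1, Slc26a4, Car2, Car12, Rhbg and Rhcg, and a probe was assigned to one of them when its transcript accession mapped to that symbol in the rat RefSeq gene table. By this rule 8 of the 9 genes had a probe, 13 probes in all, out of 15284 genes named on the array. No probe was assigned to Atp6v0a4, so it is not analysed here. The 8 genes were well above background on all 6 arrays and were among the 11965 genes that passed the filter on dim probes. Total RNA of the renal cortex was measured on 1-colour arrays, 1 array per animal, in male Sprague-Dawley rats bought at 5 weeks of age and kept on a basal diet with tap water. For 4 weeks, 3 animals were given water and the other 3 the metal ion chelator nitrilotriacetic acid trisodium monohydrate, called NTA here, at 1000 mg per kg per day. The design asks which transcripts of the renal cortex differ after NTA. The study calls the animals of a group biological replicates.

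Intercalated cells are mitochondria-rich cells that set the final acidity of urine. The acid-secreting type A cell pumps protons into the lumen with a vacuolar H+-ATPase and returns bicarbonate to the blood through the anion exchanger AE1, encoded by Slc4a1. The bicarbonate-secreting type B cell carries the chloride-bicarbonate exchanger pendrin, encoded by Slc26a4, on its luminal side. Cytosolic carbonic anhydrase II (Car2) supplies protons and bicarbonate to both, and the Rh glycoproteins Rhbg and Rhcg carry ammonia across the basolateral and luminal membranes. The forkhead factor Foxi1 is required for the intercalated cell programme, including pump subunits and pendrin. Slc4a1 is also a major membrane protein gene of red blood cells, and its kidney form starts at an internal promoter, and whether these probes separate it from the red cell form was not examined. Car2 and Car12 are also expressed in other tubule cells. In bulk RNA, fewer cells of a type and less RNA per cell cannot be told apart.

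Expression is given as log2 of the processed signal relative to the array's own 75th percentile. Different probes have different hybridisation efficiency, so values are compared between arrays for 1 probe and not between genes. Per array, 68.4% to 73.5% of probes exceeded background by the scanner software's criterion, and none of the 13 member probes was saturated. All 7 renal cortex markers examined, from proximal tubule and podocyte, were well above background on all 6 arrays, with 1 above 0 between NTA and water, 6 below and a median of -0.092 (0 called by limma, 1 lower at an unadjusted p under 0.05). Over all genes tested, 43.6% lay below 0 and 4.51% were lower at that p. Slide and scan day differed among arrays. Water 1 and NTA 2 shared a slide and were scanned on one day, while water 2 and water 3, on a slide of their own, and NTA 1 and NTA 3, on another, were scanned on the other day. Only the shared slide compares the groups within a slide, with 1 array each.

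The contrast between the exchangers of the acid-secreting and the bicarbonate-secreting cell is the comparison named with the gene list. The genes were chosen with earlier results of these data known, so the contrast describes these arrays and is no independent test. Slc4a1 was 1.27-fold higher in NTA and Slc26a4 was 1.16-fold lower, so that Slc4a1 relative to Slc26a4 was 1.48-fold higher, with no overlap between the groups. Of all single genes, 13.0% were higher without overlap and 7.25% lower, and no such share was computed for ratios of genes. No single member passed the test across all genes (limma, Benjamini-Hochberg adjusted p from 0.286 to 0.997). The pump subunits Atp6v1b1 and Atp6v1g3 had differences near 0, and Car12, a membrane-bound carbonic anhydrase, was 1.22-fold lower without overlap.

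Slc4a1 stood at 2.57, 2.62 and 2.43 in water 1, 2 and 3, and at 3.05, 2.79 and 2.81 in NTA 1, 2 and 3 (log2 relative to the 75th percentile). No water array reached the lowest NTA array, and NTA 1 was the highest. The difference was 0.35 ± 0.10 on the log2 scale (SE, 3 against 3 arrays, 95% interval 0.11 to 0.59, limma adjusted p = 0.286). It was 0.23 on the shared slide and 0.41 on the other day. A second, much dimmer probe to the same transcript gave the same difference, 0.35 ± 0.14. There the groups overlapped, since NTA 2 (-2.67) lay just below water 1 (-2.64), and the difference on the shared slide was -0.036.

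Slc26a4 stood at 5.81, 5.68 and 5.62 in water 1, 2 and 3, and at 5.48, 5.32 and 5.66 in NTA 1, 2 and 3. The NTA arrays were lower on average, NTA 2 being the lowest, but NTA 3 lay within the water range. The difference was -0.21 ± 0.11 (95% interval -0.48 to 0.05, limma adjusted p = 0.487); the interval includes 0. It was -0.49 on the shared slide and -0.076 on the other day. The second Slc26a4 probe differed by -0.30 ± 0.15, with values of 3.17, 2.94 and 2.90 in water and 2.77, 2.42 and 2.93 in NTA, and there too NTA 3 overlapped the water arrays.

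**Figure D1:**
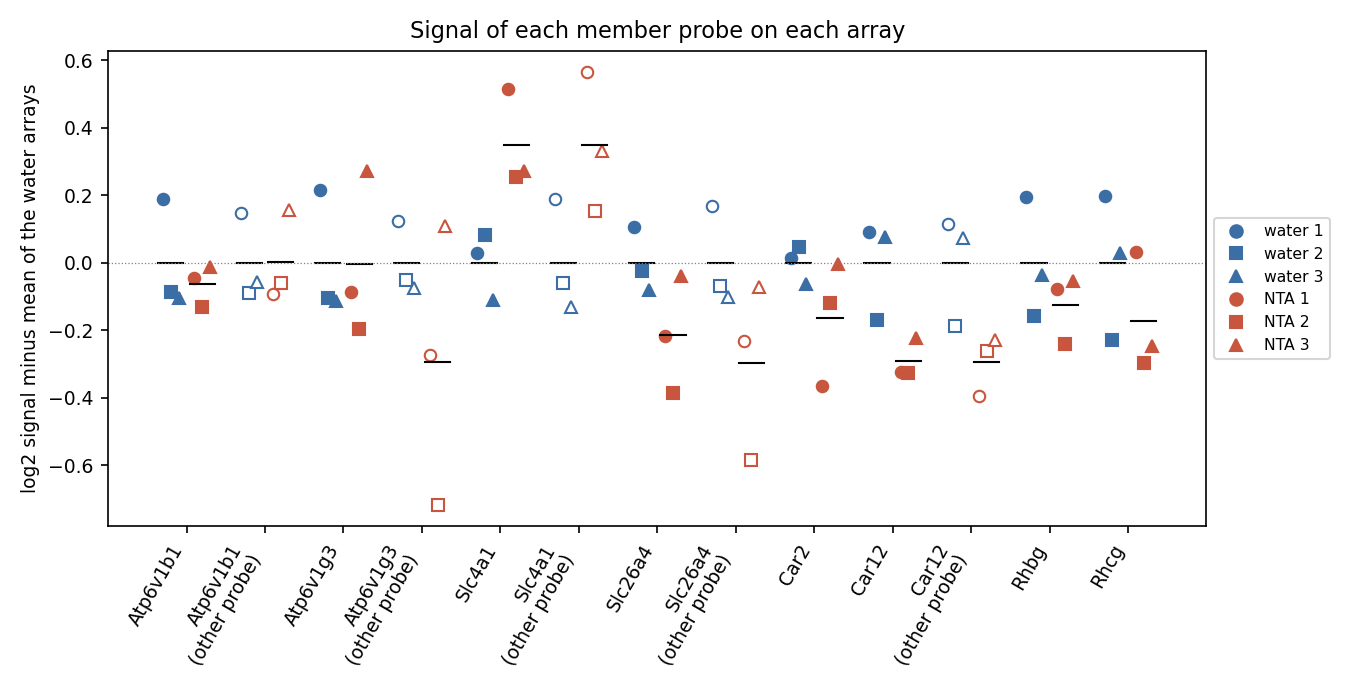
Signal of the 13 member probes on each array, as log2 signal minus the mean of the 3 water arrays; blue marks are water and red marks NTA, the shapes give the animal number, filled marks are the probe used for the gene, open marks its other probe, and short lines are group means. NTA marks lie above all water marks for the filled Slc4a1 probe, overlap them for its open probe, and lie below them for both Car12 probes, while for Atp6v1b1 and Atp6v1g3 the group means differ by 0.064 or less on the filled probe.

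On each array the log2 value of Slc4a1 minus that of Slc26a4 was -3.24, -3.06 and -3.19 in water 1, 2 and 3, and -2.43, -2.52 and -2.85 in NTA 1, 2 and 3. Every NTA array lay above every water array. The mean was -3.16 ± 0.09 in water and -2.60 ± 0.22 in NTA (SD, n = 3), a shift of 0.56 ± 0.14 (SE). By an exact permutation test, two-sided, p was 0.1, and 3 against 3 arrays allow no smaller value. With genes chosen after earlier results were known, this p is a description only. That shift was 0.72 on the shared slide and 0.48 on the other day. With the other probes of either gene or of both it lay between 0.56 and 0.65, and in each of these combinations the groups did not overlap. The 4 combinations use the same 6 RNA samples and are not independent. The probe values do not show whether type A or type B cells changed in number.

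**Figure D2:**
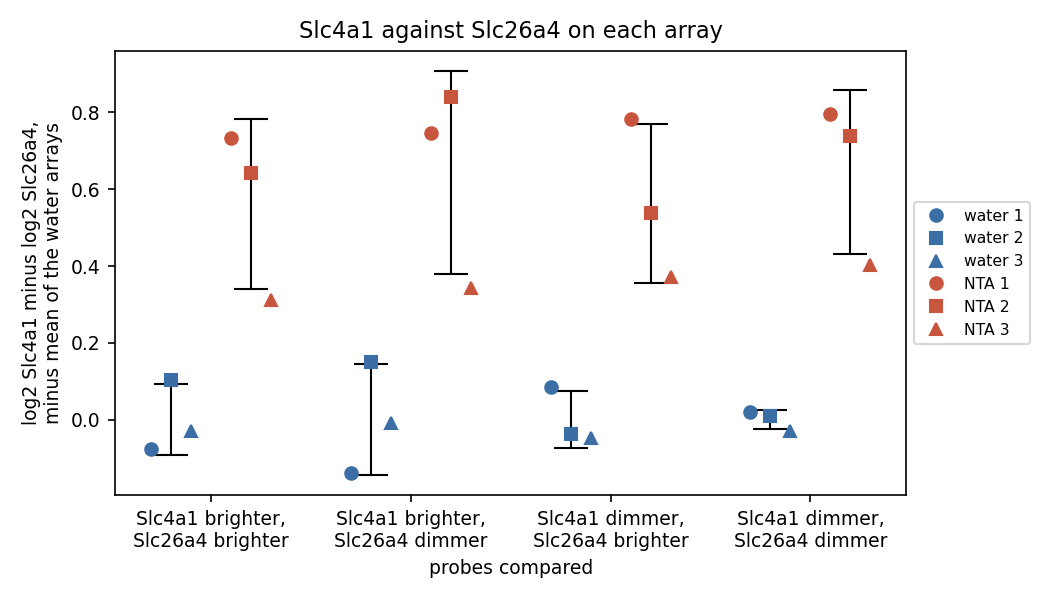
Log2 signal of Slc4a1 minus that of Slc26a4 on each array, minus the mean of the water arrays, for the 4 combinations of brighter and dimmer probes; blue marks are water, red marks NTA, shapes give the animal number and bars are the group mean ± SD (n = 3). In every combination the 3 NTA arrays lie above the 3 water arrays, with shifts between 0.56 and 0.65.

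The vacuolar H+-ATPase is built from a cytosolic V1 sector that splits ATP and a membrane V0 sector that conducts protons. Atp6v1b1 encodes the B1 subunit of V1, the form found in intercalated cells and a few other proton-secreting cells, and Atp6v1g3 encodes the G3 form of a stalk subunit. Atp6v1b1 stood at 3.90, 3.63 and 3.61 in water and at 3.67, 3.58 and 3.70 in NTA, with water 1 the highest array and the other 5 between 3.58 and 3.70. Its difference was -0.064 ± 0.10 (95% interval -0.30 to 0.18, limma adjusted p = 0.832), and its second probe gave 0.0012 ± 0.10. Atp6v1g3 stood at 6.31, 5.99 and 5.98 in water and at 6.01, 5.90 and 6.37 in NTA. Water 1 and NTA 3 were high and the other 4 arrays were alike, giving a difference of -0.0033 ± 0.16 (95% interval -0.39 to 0.38, limma adjusted p = 0.997). Its second probe stood at -0.29 ± 0.21, with NTA 2 low at 2.60 against 3.05 to 3.44 on the other 5 arrays. For the pump genes the sign depended on the arrays compared. On the shared slide Atp6v1b1 and Atp6v1g3 differed by -0.32 and -0.41, and on the other day by 0.065 and 0.20. Without water 1 the differences were 0.031 and 0.10, and Atp6v1g3 was also above 0 without NTA 1 (0.039) or NTA 2 (0.092).

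Promoter windows of the members show whether sequences of the forkhead type, to which Foxi1 belongs, lie near the starts of these genes. Of the 9 listed genes, 7 matched an entry of the RefSeq promoter table (build GRCr8), with Slc4a1 and Car2 not among them. Each window holds 250 bases before and 50 after the start. The forkhead core was searched as TGTTTA or TATTTA on both strands, overlaps allowed, and is marked in capitals. It occurred in 3 of the 7 windows, against 25.0% of the 33469 windows in the table. The 4 windows shown are those of the measured pump genes, of the type B exchanger Slc26a4 and of Car12, where the groups did not overlap.
Atp6v1b1 promoter (chr4:117781194-117781493, plus strand): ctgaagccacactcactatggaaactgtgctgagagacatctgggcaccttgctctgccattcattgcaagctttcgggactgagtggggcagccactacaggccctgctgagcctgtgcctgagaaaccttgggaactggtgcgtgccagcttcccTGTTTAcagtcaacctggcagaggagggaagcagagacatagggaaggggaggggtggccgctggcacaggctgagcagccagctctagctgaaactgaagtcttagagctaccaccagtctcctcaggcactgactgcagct
Atp6v1g3 promoter (chr13:52362082-52362381, plus strand): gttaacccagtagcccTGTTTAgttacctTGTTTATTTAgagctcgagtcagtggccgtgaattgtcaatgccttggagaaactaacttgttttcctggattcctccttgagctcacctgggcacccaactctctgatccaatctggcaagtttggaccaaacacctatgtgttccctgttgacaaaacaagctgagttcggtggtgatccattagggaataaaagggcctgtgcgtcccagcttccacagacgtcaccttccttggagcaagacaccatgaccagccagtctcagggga
Slc26a4 promoter (chr6:53873167-53873466, minus strand): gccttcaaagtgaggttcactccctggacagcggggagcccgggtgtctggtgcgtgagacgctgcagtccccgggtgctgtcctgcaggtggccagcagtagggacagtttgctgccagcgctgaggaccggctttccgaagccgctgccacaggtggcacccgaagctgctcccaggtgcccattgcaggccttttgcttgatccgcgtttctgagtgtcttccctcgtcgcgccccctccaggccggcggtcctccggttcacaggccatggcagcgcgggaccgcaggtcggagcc
Car12 promoter (chr8:76169565-76169864, plus strand): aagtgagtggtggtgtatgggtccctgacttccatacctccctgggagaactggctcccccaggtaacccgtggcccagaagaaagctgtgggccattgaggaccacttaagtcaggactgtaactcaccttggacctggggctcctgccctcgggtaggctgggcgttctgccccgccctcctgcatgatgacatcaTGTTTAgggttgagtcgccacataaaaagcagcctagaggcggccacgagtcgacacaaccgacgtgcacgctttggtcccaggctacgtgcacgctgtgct
Atp6v1b1 held 1 match, 93 bases before the start, Atp6v1g3 held 3, of which the 2 nearest the start overlap, and Car12 held 1, 52 bases before the start. The Slc26a4 window, with a GC content of 67.0% against a median of 51.7% over the table, held none. A match is a string of letters and not a measured binding site, and the absence of a match applies to this window alone.

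Car12 stood at 0.79, 0.53 and 0.77 in water 1, 2 and 3, and at 0.37, 0.37 and 0.47 in NTA 1, 2 and 3. All NTA arrays lay below all water arrays, and the spread was smaller in NTA. The difference was -0.29 ± 0.09 (95% interval -0.51 to -0.07, limma adjusted p = 0.319), with -0.42 on the shared slide and -0.23 on the other day. The second Car12 probe also separated the groups, at -0.30 ± 0.10. Car2 stood at 4.52, 4.55 and 4.44 in water and at 4.14, 4.38 and 4.50 in NTA. NTA 1 was the lowest array and NTA 3 fell inside the water range, with a difference of -0.16 ± 0.11 (limma adjusted p = 0.582) and values of -0.13 on the shared slide and -0.18 on the other day. Without NTA 1 the Car2 difference was -0.061.

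Rhbg, the basolateral ammonia carrier, stood at 3.17, 2.82 and 2.94 in water and at 2.90, 2.73 and 2.92 in NTA. Rhcg, its mainly luminal relative, stood at 3.32, 2.89 and 3.15 in water and at 3.15, 2.82 and 2.87 in NTA. For both genes water 1 was the highest array and NTA 2 the lowest, and the groups overlapped. The differences were -0.12 ± 0.11 for Rhbg (limma adjusted p = 0.694) and -0.17 ± 0.14 for Rhcg (limma adjusted p = 0.666). On the shared slide they were -0.44 and -0.50, and on the other day 0.032 and -0.0089.

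**Figure D3:**
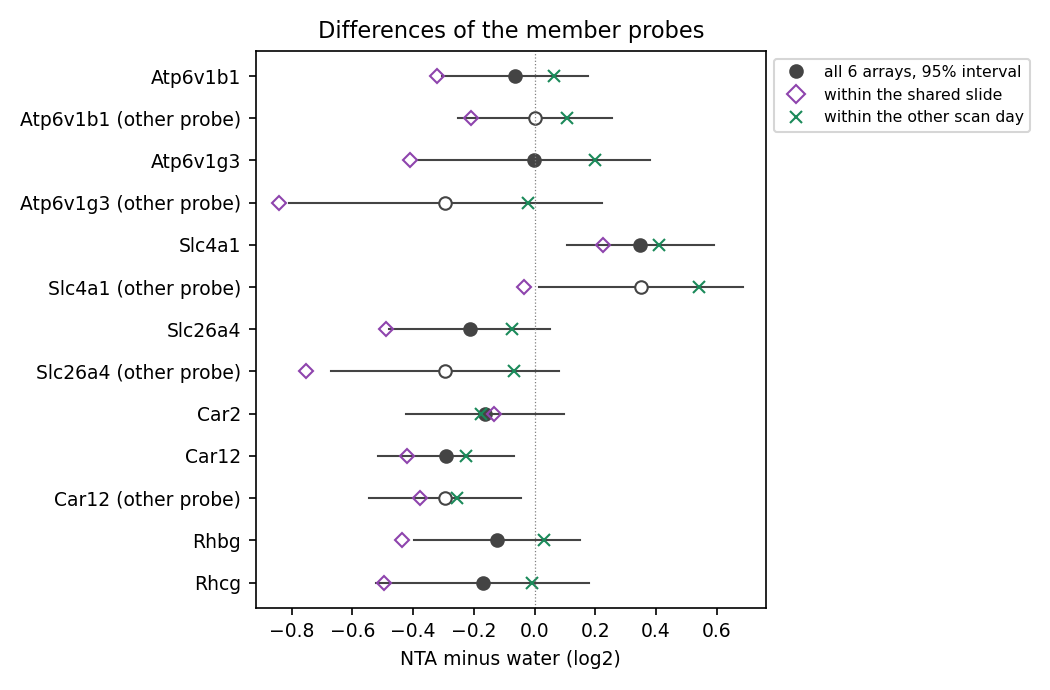
NTA minus water (log2) for each member probe; circles with bars are the limma difference over all 6 arrays and its 95% interval (filled for the probe used, open for the other probe), diamonds the difference on the shared slide and crosses that on the other day. For the 7 members other than Slc4a1 the diamonds lie between -0.50 and -0.13, and the crosses between -0.23 and 0.20 (filled probes).

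Of the 8 measured members, 0 were called by limma at an adjusted p under 0.05, against 0.0752% of all genes tested. At an unadjusted p under 0.05, 1 member was higher (Slc4a1) and 1 lower (Car12), against 7.76% and 4.51% of all genes. The groups did not overlap for 1 member on the higher side and 1 on the lower, the same genes, against 13.0% and 7.25% of all genes. Both counts lie near the shares over all genes and are not a result about the members. A difference above 0 was seen for 1 of 8 members (56.4% of all genes) and one below 0 for 7 (43.6% of all genes), and the members' median was -0.14, against 0.02 for all genes. On the shared slide it was -0.42, and on the other day, where 4 of 8 members lay above 0, it was 0.012. Without water 1 it was -0.050, with 3 members above 0, and without NTA 2 it was -0.087, with 2 above 0, as also without NTA 1. The standard errors of the members ran from 0.09 to 0.16, and the 95% intervals reached 1.17-fold to 1.3-fold to either side of the estimate.

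Water 1 was the highest of the 6 arrays for 5 of the 8 members and the lowest for none, and NTA 2 was the lowest for 6 and the highest for none. Averaged over the members, the deviation from each gene's mean was 0.17 in water 1 and -0.14 in NTA 2, and between -0.04 and 0.04 on the other 4 arrays. Water 1 and NTA 2 are the pair on the shared slide. Their deviations were opposite in sign, and the part of these in the members' differences was not tested. Against the mean of both pump genes, Slc4a1 differed by 0.38 ± 0.16 with overlapping groups, Slc26a4 by -0.18 ± 0.06 and Car12 by -0.26 ± 0.11, the latter pair without overlap. These ratios were chosen after the values had been seen and carry no test.

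Averaged over the list, other genes of intercalated cells were also highest in water 1. Of 26 listed genes outside the members, 22 were measured, 5 lay above 0 (56.4% of all genes) and 17 below, and the median was -0.051. Limma called 0, with 0 higher and 1 lower at an unadjusted p under 0.05 (7.76% and 4.51% of all genes). Water 1 was the highest array for 11 of them and NTA 2 the lowest for 11, and the median of the list came to -0.31 on the shared slide but 0.014 on the other day, and to 0.050 without water 1. Foxi1 stood at 3.30, 3.16 and 2.82 in water and at 3.35, 2.77 and 2.99 in NTA, a difference of -0.055 ± 0.19 (limma adjusted p = 0.937). Slc4a9, the anion exchanger AE4 of type B cells, differed by -0.040 ± 0.17 (limma adjusted p = 0.953), with overlapping groups. Relative to Foxi1 on the same array, Slc4a1 differed by 0.40 ± 0.14 without overlap and Slc26a4 by -0.16 ± 0.19 with overlap, ratios also chosen after their values were seen. The smallest unadjusted p values belonged to the adhesion receptor gene Adgrf5 (-0.27 ± 0.08), the oxoglutarate receptor gene Oxgr1 (-0.43 ± 0.19) and the insulin receptor-related receptor gene Insrr (-0.38 ± 0.17), with limma adjusted p of 0.300, 0.430 and 0.435. Slc26a7, a chloride-bicarbonate exchanger of acid-secreting cells, was well above background on 2 water arrays and on no NTA array and did not pass the filter, so no fold is given.

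Among the pump subunits outside the members, 19 of 21 were measured, 11 above 0 and 8 below, with a median of 0.023. Limma called 0 of them. At an unadjusted p under 0.05 there were 1 higher and 2 lower, against 7.76% and 4.51% of all genes. These were Atp6v0a1, a broadly expressed membrane subunit (0.24 ± 0.08, limma adjusted p = 0.361), Atp6v1d, the central stalk subunit (-0.20 ± 0.07, 0.334), and Atp6v1e1, a peripheral stalk subunit (-0.22 ± 0.08, 0.362). Tissue-restricted forms are set here beside their ubiquitous partners. Atp6v1b1 (-0.064) stood beside Atp6v1b2 (-0.15 ± 0.08), Atp6v1g3 (-0.0033) beside Atp6v1g1 (0.059 ± 0.05), Atp6v1c2 (-0.17 ± 0.11) beside Atp6v1c1 (0.076 ± 0.16) and Atp6v0d2 (0.19 ± 0.12) beside Atp6v0d1 (0.052 ± 0.06). The intervals of the members of each pair overlapped, and the differences within pairs were not tested. Atp6v0a2, an alternative to the unmeasured Atp6v0a4, differed by 0.023 ± 0.06.

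**Figure D4:**
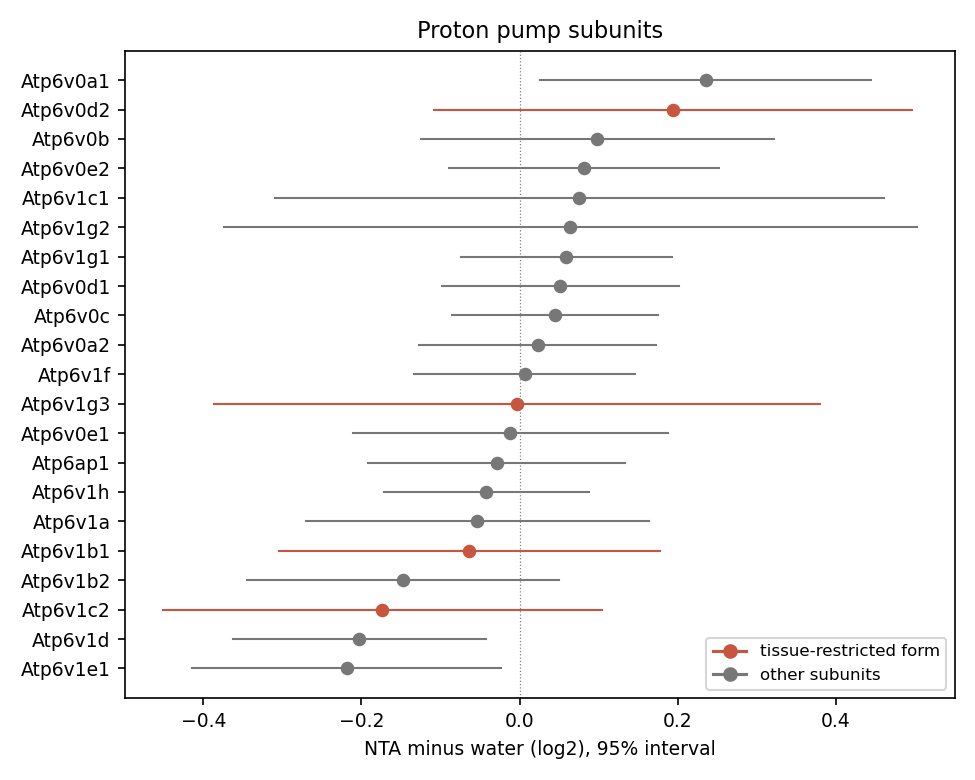
NTA minus water (log2) with its 95% interval from limma for the 21 measured proton pump genes, the members Atp6v1b1 and Atp6v1g3 included. Red marks the tissue-restricted forms set beside partners in the text (Atp6v1b1, Atp6v1g3, Atp6v1c2 and Atp6v0d2), and grey marks all other subunits. All differences lie between -0.22 and 0.24, and none passed the test over all genes.

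The other carbonic anhydrases and the other SLC4 and SLC26 genes lay on both sides of 0. Of 14 other carbonic anhydrases, 10 were measured, 4 above 0 and 6 below, with a median of -0.0062. Limma called 0 of them. Against 4.51% of all genes, 2 were lower at an unadjusted p under 0.05. Car14, a membrane-bound enzyme like Car12, was among these at -0.32 ± 0.11 (limma adjusted p = 0.349) without overlap, and the secreted enzyme gene Car6 at -0.32 ± 0.12 (0.392) with overlap. Car11, next by p, stood at 0.17 ± 0.11. Among other membrane-bound forms, Car4 stood at -0.0060 ± 0.08, Car15 at -0.0065 ± 0.19 and Car9 at 0.28 ± 0.20. Of 19 other SLC4 and SLC26 genes, 13 were measured, 7 above 0 and 6 below, with a median of 0.013. Limma called 0, with 1 higher and 1 lower at an unadjusted p under 0.05 (7.76% and 4.51% of all genes). Slc26a6, an anion exchanger of the proximal tubule brush border, stood at 1.40, 1.39 and 1.32 in water and at 1.64, 1.74 and 1.69 in NTA. The groups lay well apart, at 0.32 ± 0.06 (limma adjusted p = 0.205, 0.34 on the shared slide and 0.31 on the other day). Slc4a11 stood at -0.27 ± 0.11 (limma adjusted p = 0.401) and Slc4a10 at 0.15 ± 0.09 (0.554). Atp6v1c2, Atp6v0d2, Slc4a8, Slc4a9 and Car15 belong to more than one of these lists.

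Markers of neighbouring tubule cells also differed between arrays. Of the principal cell markers limma called 0, with 0 higher and 1 lower at an unadjusted p under 0.05 (7.76% and 4.51% of all genes). In this list 11 of 14 were measured, 4 lay above 0 (56.4% of all genes) and the median was -0.19. On the shared slide this median was -0.38, against 0.0091 on the other day and -0.067 without water 1, and water 1 was the highest array for 7 of the 11. Aqp2, the water channel of principal cells, differed by 0.045 ± 0.12, while Tmem45b (-0.54 ± 0.13, limma adjusted p = 0.255), Hsd11b2 (-0.21 ± 0.11) and the sodium channel subunit gene Scnn1g (-0.42 ± 0.23) had the smallest p. Markers of the distal convoluted and connecting tubule had a median of -0.11 (9 of 11 measured, 3 above 0, 0 called by limma), with the calcium-binding protein gene S100g at 0.45 ± 0.18, Trpv5 at -0.43 ± 0.18 and Slc8a1 at 0.43 ± 0.20. Markers of the thick ascending limb had a median of 0.13 (7 of 8 measured, 6 above 0, 0 called by limma), with Cldn10 at 0.16 ± 0.09, Ppp1r1a at 0.13 ± 0.07 and Umod at 0.13 ± 0.09. For both lists 0 genes had an unadjusted p under 0.05, against 7.76% higher and 4.51% lower over all genes. The summed signal of the principal cell list, in units of the 75th percentile, ran from 177.6 to 211.5 in water and from 181.3 to 204.7 in NTA. That of the 8 members ran from 169.8 to 199.7 in water and from 154.3 to 192.0 in NTA. The part of a varying share of collecting duct tissue in the members' values was not tested.

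Because red cells also carry AE1, erythroid genes were set beside Slc4a1. Of 18 listed genes, 11 were measured, 6 above 0 (56.4% of all genes), with a median of 0.081. Limma called 0, with 2 higher and 0 lower at an unadjusted p under 0.05 (7.76% and 4.51% of all genes). The median was 0.48 on the shared slide, -0.11 on the other day, -0.16 without NTA 2 and 0.23 without NTA 1. Hbb, the beta-globin gene, stood at 7.60, 7.55 and 7.36 in water and at 7.29, 8.06 and 7.41 in NTA, a difference of 0.081 ± 0.21 (limma adjusted p = 0.915). Hba-a1 and Alas2, the erythroid enzyme of heme synthesis, were likewise highest in NTA 2, and the summed erythroid signal was 456.0 to 508.4 in water and 467.5, 724.3 and 476.0 in NTA 1, 2 and 3. Slc4a1 was highest in NTA 1, the array with the lowest mean of the erythroid list (-0.23 from the gene means, against 0.36 in NTA 2). That mean counts dim genes such as Kel and Epb42 like bright ones. By summed signal the lowest array was water 3 (456.0) and not NTA 1 (467.5). The erythroid transcription factor gene Klf1 stood at 0.42 ± 0.12 (limma adjusted p = 0.296), and Epb42, a red cell partner protein of AE1, at -0.52 ± 0.30 (0.547). Gata1, an erythroid transcription factor gene, was well above background on 0 of 6 arrays, and Rhag, a red cell relative of Rhbg and Rhcg, did not pass the filter either. The part of red cell RNA in the Slc4a1 signal was not tested beyond these values.

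Genes listed as markers of medulla and papilla had a median of 0.20 (9 of 10 measured, 6 above 0 against 56.4% of all genes). Limma called 0, with 3 higher and 0 lower at an unadjusted p under 0.05 (7.76% and 4.51% of all genes). The genes of smallest p were the small heat shock protein gene Cryab (1.26 ± 0.28), the aldose reductase gene Akr1b1 (0.38 ± 0.11) and the sodium pump regulator gene Fxyd2 (0.20 ± 0.06). The summed signal of the list was 278.2 to 292.3 in water and 314.9 to 333.3 in NTA, without overlap. Most of this sum comes from Fxyd2 (mean log2 7.14 in water and 7.35 in NTA) and Aqp1 (6.82 and 6.81). It is thus not an even measure of the list. Aqp1, Fxyd2 and Bsnd are also expressed in cortical tubules, so neither the sum nor the median measures medulla content alone. The 3 genes below 0 were Aqp1 (-0.0095), Bsnd (-0.020) and Slc14a2 (-0.20). The median was 0.0085 on the shared slide, and 0.22 among arrays of the other day. Without NTA 1 it was 0.054. Averaged over each list, NTA 1 was the highest array for medulla and papilla markers (0.26 from the gene means) and the lowest for the renal cortex markers (-0.21), and it was also the array with the highest Slc4a1 value. The part of the cortex and medulla content in the members' values was not tested.

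**Figure D5:**
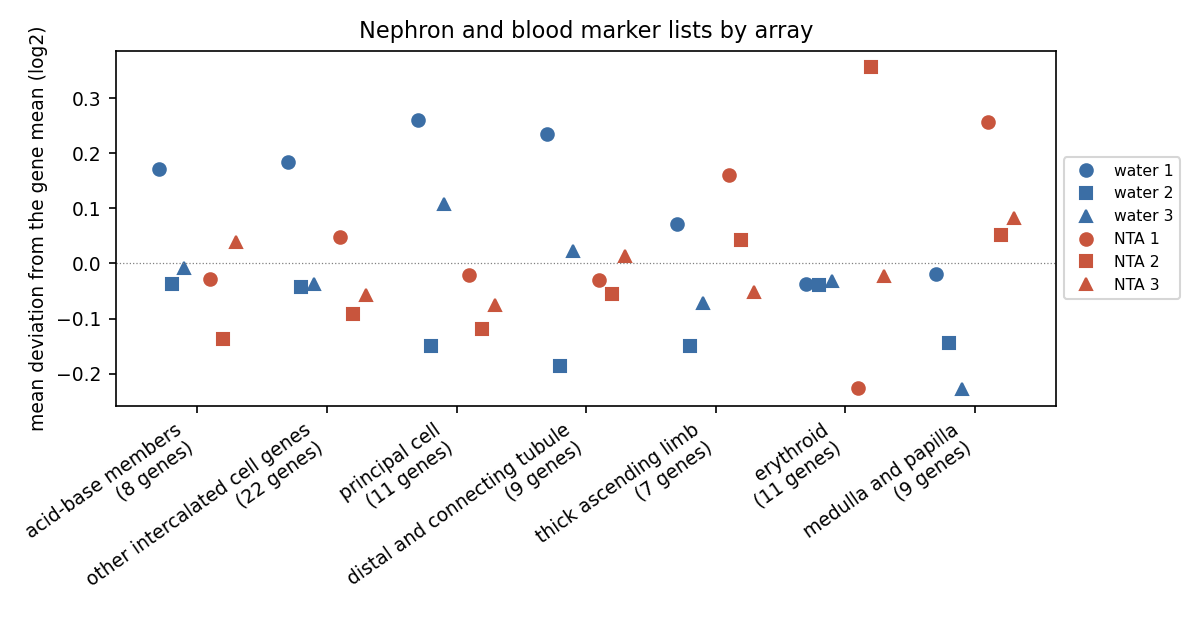
Mean deviation from each gene's own mean (log2), over the genes of a list, on each array; blue marks are water, red marks NTA and shapes give the animal number. Water 1 is the highest array for the acid-base members (0.17), other intercalated cell genes (0.18), principal cell (0.26) and distal tubule markers (0.23), and NTA 2 is the highest for erythroid markers (0.36). Among lists not drawn, water 1 was also the highest for renal cortex markers (0.18) and other carbonic anhydrases (0.094). NTA 2 was the highest for other pump subunits (0.016) and other SLC4 and SLC26 genes (0.082).

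Genes with the pattern most like the exchangers were sought among 11956 other genes measured on all 6 arrays, by the root mean square difference of values centred over the arrays. For Slc4a1 they were Otog, Dgkz and Josd2, with root mean square differences of 0.0376 to 0.0473 on the log2 scale and own differences of 0.36, 0.27 and 0.28 between NTA and water. For Slc26a4 they were Slc4a11, Exo5 and Fbxo22, at 0.0504 to 0.0514, with own differences of -0.27 for each. With 6 arrays and so many genes, close matches of this size are a description only.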

How the data were processed

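Total RNA from the renal cortex of 6 rats was hybridised as Cy3-labelled cRNA to 1-colour Agilent arrays, per the labels' protocols. Per the file headers, the scans were read by Agilent Feature Extraction 10.7.1.1 (the submitters' processing notes give 10.7). The deposited intensity values are background-corrected processed signals on a linear scale, not scaled between arrays. The deposited table of the whole series holds, as a ratio, the same signal divided by 1 constant per array, within 0.07% of the array's 75th percentile, with no centring of genes. That scaling was found from the values, and column medians were 0.110 to 0.115.

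Outlier, control and spike-in spots were left out. Probes were named by transcript accession through the RefSeq gene table of GRCr8, giving 27460 probes with 1 symbol. No gene coordinates are taken from it, since the array was designed on another build. A probe was kept if well above background on all 3 arrays of a group, and a gene was its kept probe of highest mean. Log2 signal minus the array's 75th percentile was fitted over all 11965 genes with limma (version 3.58.1, R 4.3.3, lmFit and eBayes, two-sided), adjusted p under 0.05 being the threshold. The contrast of Slc4a1 with Slc26a4 used an exact permutation test (scipy 1.17.1). The fit was tested on simulated data with genes drawn independently and no slide or scan-day effect, so that test does not cover such effects. The members and lists were chosen with earlier results of these data known. The rule for named genes takes all members, from each other list the genes past the threshold or else the 3 of smallest p, the pump partners, 3 genes nearest in pattern to each exchanger, and Foxi1, Slc4a9, Slc26a7, Aqp2 and Hbb. Hba-a1, Alas2 and the renal cortex markers were added after values were seen. The values of 1 gene that the rule names are not reported here. Alternatives were quantile normalization, normexp, the deposited table, median spot and background signals serving for normexp, no filter, the mean of probes, eBayes with trend and robust, blocks for slide, scan day and replicate number, and leaving out each array.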

Additional observations from a re-analysis of the deposited data

How the results depend on the processing

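The contrast of Slc4a1 with Slc26a4 stayed above 0 in all 21 alternatives (0.48 to 0.72), as did the Slc4a1 difference in its 19 (0.23 to 0.41). The Car12 difference stayed below 0 in its 19 (-0.42 to -0.23) and the Slc26a4 difference in its 19 (-0.49 to -0.08). Not all alternatives could move these estimates. No filter, eBayes with trend and robust, scan day as a block and the replicate block left the contrast at its main value of 0.56. The deposited table holds the same signal and also gave 0.56. Slide as a fixed block rests on the shared slide alone, with 0.72 for both. No member was called under any fitted alternative. Over all named genes, where 9 were called, 0 passed under quantile normalization, without a filter, with scan day as a block and with the replicate block, 5 with slide as a fixed block, 22 under normexp, 38 with eBayes with trend and robust, and 0 to 4 without 1 array. The cause was not tested. Of the 8 members, 1 lay above 0, against 2 under normexp and with slide as a random block, 4 on the other day and 1 to 3 without 1 array (3 without water 1). Their median (-0.14) was -0.42 with slide as a fixed block and on the shared slide, 0.012 on the other day and -0.17 to -0.05 without 1 array. Atp6v1g3 changed sign under normexp (0.0022), with slide as a random block (0.016), on the other day (0.20) and without 1 array (-0.14 to 0.10). Atp6v1b1 changed sign on the other day (0.065), on its other probe (0.0012) and without water 1 (0.031; -0.12 to 0.031 over the arrays), and Rhbg on the other day (0.032). Leaving out 1 array, Slc26a4 ranged from -0.30 to -0.13, Car2 from -0.24 to -0.061, Rhbg from -0.20 to -0.027 and Rhcg from -0.29 to -0.072, and the medians of the distal tubule markers from -0.28 to -0.038, of the pump subunits from -0.0020 to 0.034, of the carbonic anhydrases from -0.081 to 0.031 and of the SLC4 and SLC26 genes from -0.090 to 0.048. Deviations of same-numbered arrays correlated at -0.09 to 0.07, and those of other-numbered arrays at -0.12 to 0.10. These correlations cannot show whether replicate numbers pair the animals. The replicate block leaves the contrast at 0.56, since each number holds 1 array of each group. Normexp was run on median spot signals. The shared-slide, other-day and other-probe values were chosen after seeing the data. With 3 arrays a group, the unadjusted limma interval of a member reached 1.17-fold to 1.3-fold to either side, depending on the gene. A difference smaller than this reach for its gene cannot be told from 0. A larger one need not pass the adjusted test. The intervals of Slc4a1 (1.27-fold higher) and Car12 (1.22-fold lower) excluded 0, yet their limma adjusted p was 0.286 and 0.319.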
